A study of Homo sapiens with 8 samples.

Results

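The nucleic acid sensors examined here are 10 genes chosen by name and role: the RNA helicases RIGI, IFIH1 (which encodes MDA5) and DHX58 (LGP2), the endosomal receptor TLR3, the adapters MAVS and STING1, the DNA sensor CGAS, the Z-form nucleic acid sensor ZBP1, the RNA-activated kinase EIF2AK2 (PKR) and the RNA editor ADAR. All 10 were found among the 22627 gene symbols of the deposited tables, and all 10 were among the 11052 genes with a mean of at least 1 FPKM that entered the comparisons. The RNA was that of NB4, a human cell line derived from acute promyelocytic leukaemia, which bears PML-RARA and is driven into granulocytic maturation by all-trans retinoic acid (ATRA). Every group carried a lentiviral hairpin. The hairpin shTFEB targets TFEB, which encodes a regulator of lysosomal and autophagic gene expression, and the control hairpin (shScr) has a scrambled sequence; the cells were kept for 72 h in 1 µM ATRA or in ethanol vehicle. The 4 groups were shTFEB ATRA, shTFEB vehicle, shScr ATRA and shScr vehicle, with 2 samples each in the labels, and wild-type NB4 cells were not analysed here; whether a hairpin line is a clone or a pool is not given in the sources used here. The tables hold 1 FPKM value (fragments scaled to the length of the transcript model and to all mapped fragments) per model and group, so no spread between samples could be computed and no test was run. Genes are called risen or fallen, and counted as higher or lower, from a log2 ratio of at least 1 in size, computed on FPKM + 1, and this 2-fold mark has no replicate check. This scale understates the change of genes near or below 1 FPKM, for which the plain fold is given as well. FPKM is a share of all RNA in bulk cells, so fewer cells of a kind and less RNA per cell cannot be told apart.

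TFEB, the targeted gene, stood at 8.44 FPKM in shTFEB ATRA and 1.35 FPKM in labelled shTFEB vehicle, against 19.4 FPKM in shScr ATRA and 1.203 FPKM in shScr vehicle. The hairpin label is therefore borne out by TFEB mRNA under ATRA, where 43.6% of the shScr level was left, and not under vehicle, for which the cells are called "labelled shTFEB". The depth relative to shScr vehicle, read from the deposited upper bounds of 13840 models listed at 0 in every group, was 0.911 in shTFEB ATRA, 1.17 in labelled shTFEB vehicle and 1.05 in shScr ATRA. Absolute depth is not given in the sources used here. Myeloid genes marked the cells as labelled: MPO stood between 594 and 3871 FPKM, and CD33 between 23.4 and 29.3 FPKM, whereas ELANE, a granule protease of promyelocytes, was listed at 0 or at 0.0456 FPKM. ITGAM, an integrin gene that marks maturation, stood at 54.6 FPKM in shTFEB ATRA and 5.63 FPKM in labelled shTFEB vehicle, against 83.1 FPKM in shScr ATRA and 2.18 FPKM in shScr vehicle. The log2 ratio of ITGAM between the vehicle groups was 1.06, and that of CYBB, an NADPH oxidase gene, was -0.71 between the ATRA groups. The part of these markers in the sensor results was not tested.

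The loci on hg19 are chr9:32455300-32526322 for RIGI, chr2:163123589-163175218 for IFIH1, chr17:40253422-40264751 for DHX58, chr20:3827446-3856770 for MAVS and chr4:186990309-187006252 for TLR3. Those of the others are chr6:74134856-74162043 for CGAS, chr5:138855113-138862343 for STING1, chr20:56178902-56195632 for ZBP1, chr2:37332284-37384190 for EIF2AK2 and chr1:154554534-154600456 for ADAR.

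In textbook terms, RIGI and MDA5 bind double-stranded or uncapped RNA in the cytosol and signal through MAVS on mitochondria, and LGP2, which lacks the signalling domains, modulates them. TLR3 reads double-stranded RNA in endosomes, cGAS reads cytosolic DNA and makes a cyclic dinucleotide that activates STING, and ZBP1 binds nucleic acid in the left-handed Z form and can trigger necroptosis. PKR halts translation by phosphorylating eIF2α when it meets double-stranded RNA, and ADAR edits adenosines to inosines in such RNA, which lowers its recognition by MDA5 and PKR. Several of these genes are known to be induced by interferon through a promoter element, the interferon-stimulated response element (ISRE), that holds GAAA repeats.

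The 5′ regions of the genes are given here because such elements, and the E-box that TFEB is known to bind, can be read from them. RefSeq windows from 250 bases before to 50 after an annotated start (GRCh38.p14) were matched for 6 of the 10 genes, in 8 windows. The windows of CGAS, DHX58, STING1 and ZBP1 were not analysed here. The lines give the stretch up to the start or to the end of the last match, 5′ to 3′ along the transcript, with motif matches in capitals; for ADAR only the bases around its match at the distal start are given.
RIGI (chr9:32526197-32526446, minus strand): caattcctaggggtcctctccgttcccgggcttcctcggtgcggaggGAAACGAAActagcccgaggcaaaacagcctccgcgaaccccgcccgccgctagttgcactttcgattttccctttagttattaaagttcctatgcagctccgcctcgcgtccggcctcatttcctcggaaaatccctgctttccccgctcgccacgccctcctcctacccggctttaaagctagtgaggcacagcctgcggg
IFIH1 (chr2:162318685-162318934, minus strand): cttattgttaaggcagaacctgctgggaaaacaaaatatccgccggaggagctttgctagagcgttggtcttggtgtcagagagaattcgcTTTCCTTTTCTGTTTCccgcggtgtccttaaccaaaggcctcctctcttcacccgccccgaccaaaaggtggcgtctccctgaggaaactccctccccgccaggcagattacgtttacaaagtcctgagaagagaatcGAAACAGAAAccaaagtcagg
TLR3 (chr4:186068906-186069161, plus strand): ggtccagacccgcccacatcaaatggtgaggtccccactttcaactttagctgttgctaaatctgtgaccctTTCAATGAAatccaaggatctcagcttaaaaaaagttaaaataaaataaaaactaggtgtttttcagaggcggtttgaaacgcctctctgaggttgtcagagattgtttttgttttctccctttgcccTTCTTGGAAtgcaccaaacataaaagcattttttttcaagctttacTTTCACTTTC
EIF2AK2 (chr2:37156977-37157230, minus strand): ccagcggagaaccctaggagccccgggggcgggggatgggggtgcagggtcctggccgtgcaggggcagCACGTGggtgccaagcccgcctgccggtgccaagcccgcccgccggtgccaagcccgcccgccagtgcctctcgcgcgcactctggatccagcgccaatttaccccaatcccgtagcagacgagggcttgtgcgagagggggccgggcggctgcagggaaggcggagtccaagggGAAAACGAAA
ADAR (chr1:154627998-154628061, minus strand): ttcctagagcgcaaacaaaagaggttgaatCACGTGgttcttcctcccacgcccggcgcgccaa

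The ISRE core, 2 copies of GAAA with 2 bases between them on either strand, was found in 3 genes and in 3.57% of all 35116 windows of the table. IFIH1 held 3 matches, of which 2 overlap on the opposite strand at bases -159 to -144 before the start and 1 lies at -21 to -12. EIF2AK2 held 1 match across the start, from -6 to 4, and TLR3 held 1 from -4 to 6 on the opposite strand. RIGI held no ISRE core in its window, but at -203 to -195 its sequence repeats GAAA with 1 base between the copies, a spacing that was added after the sequence had been read and that occurs in 3.12% of windows. The GAS core (TTC and GAA with 3 bases between them) was found in TLR3 alone among the 6 genes, with 2 matches, and in 7.66% of all windows. The E-box core CACGTG was found in EIF2AK2 at -181 to -176 and in ADAR before both distal starts, at -34 to -29 of the upper and -60 to -55 of the lower; 7.26% of all windows hold it. None of the 8 windows held the retinoid receptor repeats searched (AGGTCA in 2 copies with 5 or 2 bases between them). Of all 35116 windows, 2 hold the repeat with 5 bases between and 1 that with 2. Absence from the 8 windows was therefore all but set in advance. The bases after the start were sought in GENCODE transcripts of each gene. They were found for every window except those of the upper distal and the third start of ADAR, so these starts are less certain. A match is a description of the sequence and no measured site.

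**Figure D1:**
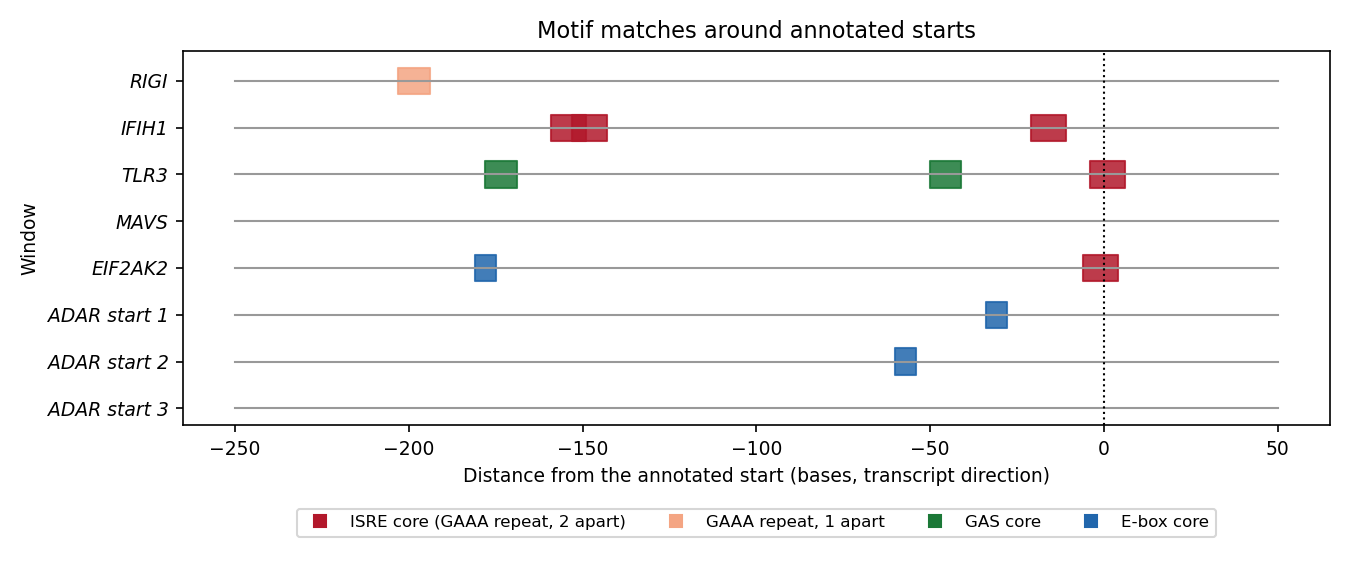
Positions of motif matches in the 8 RefSeq windows, as distance in bases from the annotated start along the transcript (dotted line). Boxes mark the ISRE core, the GAAA repeat with 1 base between, the GAS core and the E-box core; ADAR has 3 annotated starts, and MAVS and the third ADAR start hold no match. For ADAR starts 1 and 3 the bases after the start were not found in GENCODE transcripts of the gene.

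Among the RNA helicases, all 3 rose with ATRA under each hairpin and were higher in shTFEB ATRA than in shScr ATRA. RIGI stood at 178 FPKM in shTFEB ATRA and 5.99 FPKM in labelled shTFEB vehicle, against 35.6 FPKM in shScr ATRA and 6.81 FPKM in shScr vehicle. Its level in shTFEB ATRA was the highest of the 10 genes in that group and exceeded 96.5% of all compared genes. With ATRA RIGI rose 29.7-fold in shTFEB cells (log2 ratio 4.68) and 5.24-fold in shScr cells (2.23), and between the ATRA groups it was 4.997-fold higher in shTFEB cells (2.29). Under vehicle the groups lay close together, at a log2 ratio of -0.16.

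IFIH1 stood at 55.5 FPKM in shTFEB ATRA and 1.09 FPKM in labelled shTFEB vehicle, against 18.04 FPKM in shScr ATRA and 1.31 FPKM in shScr vehicle. Its log2 ratio with ATRA was 4.76 in shTFEB cells (50.9-fold) and 3.05 in shScr cells (13.8-fold). In shTFEB cells it stood close to RIGI, and their order turned with a pseudocount of 5 FPKM (3.31 for IFIH1 and 4.06 for RIGI). DHX58 stood at 14.0 FPKM in shTFEB ATRA and 0.417 FPKM in labelled shTFEB vehicle, against 4.87 FPKM in shScr ATRA and 0.373 FPKM in shScr vehicle. Under ATRA the ratio of shTFEB to shScr cells was 3.07-fold for IFIH1 (log2 ratio 1.57) and 2.88-fold for DHX58 (1.36), both short of that of RIGI. The proportion among the helicases thus shifted: RIGI had 3.21 times the FPKM of IFIH1 in shTFEB ATRA and 5.50 times in labelled shTFEB vehicle, against 1.98 times in shScr ATRA and 5.22 times in shScr vehicle.

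MAVS, the adapter that RIGI and MDA5 share, moved little. It stood at 19.0 FPKM in shTFEB ATRA and 15.5 FPKM in labelled shTFEB vehicle, against 18.1 FPKM in shScr ATRA and 15.4 FPKM in shScr vehicle. Its log2 ratios were 0.28 with ATRA in shTFEB cells, 0.22 in shScr cells and 0.07 between shTFEB and shScr cells under ATRA, and the last changed sign under upper-quartile rescaling (-0.035). The RIGI to MAVS ratio of FPKM was 9.37 in shTFEB ATRA and 0.387 in labelled shTFEB vehicle, against 1.97 in shScr ATRA and 0.443 in shScr vehicle. The tables assign MAVS to 2 of its 3 models under vehicle and to 1 under ATRA: a second model stood at 2.07 FPKM in labelled shTFEB vehicle and 1.96 FPKM in shScr vehicle and was listed at 0 in both ATRA groups.

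TLR3 and ZBP1 were the sensors with the lowest levels, and they passed the filter through the shTFEB ATRA group, where they were high; that they differ is in part set by this. TLR3 stood at 3.38 FPKM in shTFEB ATRA and 0.0347 FPKM in labelled shTFEB vehicle, against 0.618 FPKM in shScr ATRA and 0.0362 FPKM in shScr vehicle. Without the added 1 FPKM its ATRA response was 97.3-fold in shTFEB and 17.1-fold in shScr cells, and only the first of these passed the mark on the log2 scale used (2.08 against 0.64). ZBP1 stood at 6.14 FPKM in shTFEB ATRA and 0.268 FPKM in labelled shTFEB vehicle, against 0.553 FPKM in shScr ATRA and 0.281 FPKM in shScr vehicle.

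ZBP1 was 11.1-fold higher in shTFEB ATRA than in shScr ATRA (log2 ratio 2.20), which is the widest plain ratio of the 10 genes. In shScr cells its ATRA response was 1.97-fold with deposited bounds that overlapped (0.394 to 0.757 FPKM in shScr ATRA, 0.199 to 0.410 FPKM in shScr vehicle), while in shTFEB cells it was 22.9-fold. Its 4 models divided the signal differently by group: in shTFEB ATRA they held 2.83, 2.13, 1.18 and 0 FPKM, in shScr ATRA 0.0629, 0, 0.490 and 0 FPKM, and in both vehicle groups only the leading model was above 0. The model at 2.13 FPKM spans 7692 bases of the 16731-base locus and was listed at 0 in the other 3 groups; the models overlap, so the sum is used for ZBP1 elsewhere.

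EIF2AK2 and ADAR were also highest in shTFEB ATRA. Their log2 ratios with ATRA and between the ATRA groups were smaller than those of the helicases. With a pseudocount of 5 FPKM, however, EIF2AK2 passed DHX58 between the ATRA groups (1.19 against 0.95). The same held with ATRA in shTFEB cells (2.02 against 1.81). EIF2AK2 stood at 66.4 FPKM in shTFEB ATRA and 12.6 FPKM in labelled shTFEB vehicle, against 26.3 FPKM in shScr ATRA and 12.8 FPKM in shScr vehicle. It rose with ATRA in shTFEB cells (5.26-fold, log2 ratio 2.31) and reached 2.05-fold, a log2 ratio of 0.98 just short of the mark, in shScr cells; under ATRA it was 2.52-fold higher in shTFEB cells (1.30). ADAR stood at 125 FPKM in shTFEB ATRA and 45.1 FPKM in labelled shTFEB vehicle, against 69.0 FPKM in shScr ATRA and 42.5 FPKM in shScr vehicle. ADAR passed the mark with ATRA in shTFEB cells alone (log2 ratio 1.45, against 0.69 in shScr cells), and under ATRA its ratio of shTFEB to shScr cells was 1.81-fold (0.85), below the mark.

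ADAR was the most abundant of the 10 in both vehicle groups. The FPKM of ADAR was 1.88 times that of EIF2AK2 in shTFEB ATRA and 3.58 times in labelled shTFEB vehicle, against 2.62 times in shScr ATRA and 3.31 times in shScr vehicle, so the kinase gained on the editor wherever ATRA was present and most in shTFEB cells. ADAR is known for a long form driven by an interferon-inducible promoter and a constitutive short form. The tables give 100% of the ADAR signal in every group to 1 of 5 models, which runs from its start at base 154600456 on the minus strand of chromosome 1 (hg19) and whose matched GENCODE transcript has 931 codons, and list the others at 0 with upper bounds of at most 0.00445 FPKM, among them the model whose matched transcript has 1226 codons. The deposited values therefore give no separate level for the long form, and the ratios above are those of the gene. EIF2AK2 was likewise given to 1 of 3 models in each group.

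On the DNA side CGAS and STING1 parted. CGAS stood at 19.9 FPKM in shTFEB ATRA and 14.4 FPKM in labelled shTFEB vehicle, against 16.6 FPKM in shScr ATRA and 13.1 FPKM in shScr vehicle. None of its log2 ratios passed the mark, the widest being 0.44 with ATRA in shTFEB cells. STING1, in contrast, stood at 157 FPKM in shTFEB ATRA and 12.2 FPKM in labelled shTFEB vehicle, against 212 FPKM in shScr ATRA and 14.5 FPKM in shScr vehicle. It rose 12.9-fold in shTFEB cells (3.58) and 14.7-fold in shScr cells (3.79). In shScr cells its log2 ratio was the highest of the 10, whereas by plain fold that of TLR3 was higher (17.1).

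STING1 was the only member of the 10 with a lower level in shTFEB ATRA than in shScr ATRA, at 74.0% of the shScr level (log2 ratio -0.43), and it did so without passing the mark. The deposited bounds of the ATRA groups, 141 to 146 FPKM in shTFEB and 191 to 196 FPKM in shScr cells, did not overlap, but neither enclosed its own value. Under vehicle its log2 ratio was -0.23. The STING1 to CGAS ratio of FPKM was 7.91 in shTFEB ATRA and 0.850 in labelled shTFEB vehicle, against 12.8 in shScr ATRA and 1.11 in shScr vehicle.

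**Figure D2:**
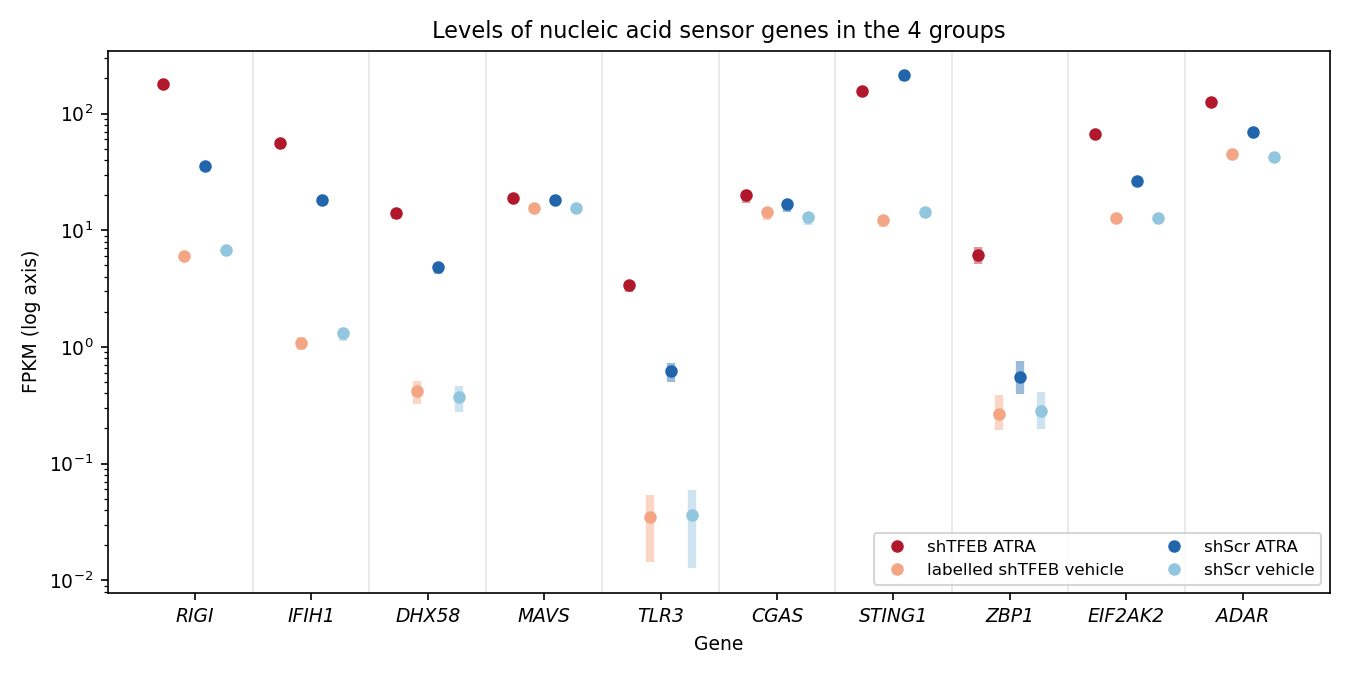
FPKM of the 10 genes (log axis) in the 4 groups, 1 deposited value per group as a point, with bars from the deposited lower to upper bound, which do not always enclose the point. RIGI runs up to 178 FPKM in shTFEB ATRA, STING1 up to 212 FPKM in shScr ATRA, and MAVS stays between 15.4 and 19.0 FPKM.

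Counted over the 10 genes, 8 rose and 0 fell with ATRA in shTFEB cells, where 11.5% of all compared genes rose and 10.5% fell, and 4 rose and 0 fell in shScr cells, where 12.5% of all compared genes rose and 15.2% fell. The 4 were STING1, IFIH1, RIGI and DHX58. The members' median log2 ratio was 2.40 in shTFEB and 0.83 in shScr cells, beside medians over all compared genes of -0.13 in shTFEB and -0.15 in shScr cells. Between shTFEB and shScr cells under ATRA 6 of 10 were higher and 0 lower, where 2.67% of all compared genes were higher and 1.58% lower: RIGI, ZBP1, IFIH1, TLR3, DHX58 and EIF2AK2, with a members' median of 1.33 beside 0.06 over all genes. Without TLR3 and ZBP1, which passed the filter through shTFEB ATRA, 4 of 8 were higher with a median of 1.07, and 6 of 8 rose with ATRA in shTFEB cells. Under vehicle 0 of 10 passed the mark in either direction, where 1.06% of all compared genes were higher and 0.787% were lower, and the members' log2 ratios ran from -0.23 to 0.13. The deposited bounds of the vehicle groups were apart for RIGI, STING1 and ADAR and overlapped for the others. The share of all compared genes with bounds apart is not given here, so this is not read as a difference. STING1 lay outside its own bounds in both vehicle groups.

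The difference of the ATRA responses (shTFEB minus shScr, in log2 units) was at least 1 for those 6 genes (4 of 8 without TLR3 and ZBP1), where it was for 2.42% of all compared genes, and at most -1 for 0 of the 10, where it was for 1.86%. It was 2.45 for RIGI, 2.22 for ZBP1, 1.71 for IFIH1, 1.44 for TLR3, 1.33 for EIF2AK2 and 1.31 for DHX58. ADAR had 0.76, CGAS 0.12, MAVS 0.06 and STING1 -0.21. The comparisons share groups, so these differences and the ratios under ATRA rest on the same shTFEB ATRA and shScr ATRA values. Rescaling by upper quartiles moved the median of all genes by 0.12 for ATRA against vehicle in shScr cells, where it took the members past the mark to 5 by adding EIF2AK2 (1.11).

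**Figure D3:**
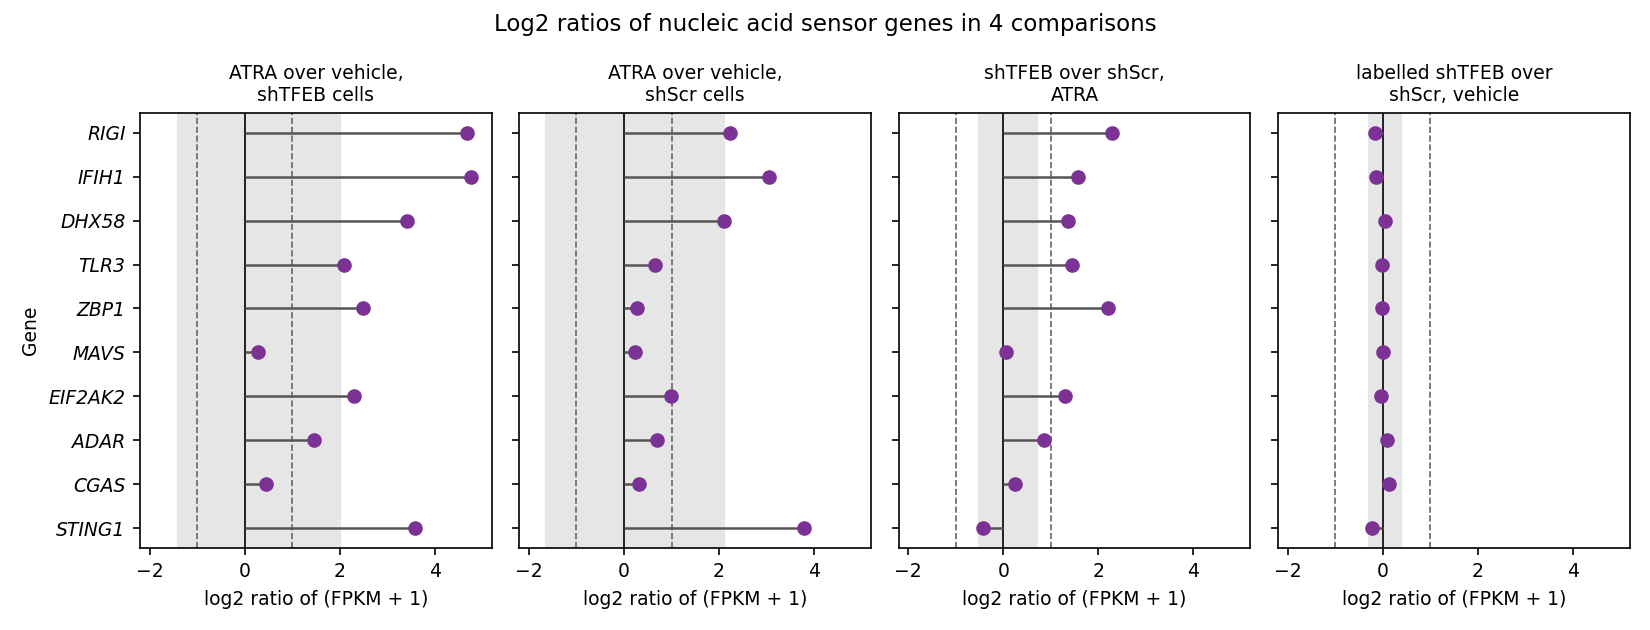
Log2 ratios of FPKM + 1 for the 10 genes in 4 comparisons, as lines from 0 to the value. Dashed lines mark a 2-fold difference and grey bands the middle 90% of all compared genes; 8 genes pass the mark with ATRA in shTFEB cells, 4 in shScr cells, 6 between the ATRA groups and 0 between the vehicle groups.

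The order of the levels, which FPKM allows since it is per length, changed with ATRA. In the vehicle groups ADAR led, MAVS, STING1, CGAS and EIF2AK2 lay together between 12.2 and 15.5 FPKM, RIGI followed at 5.99 FPKM in labelled shTFEB vehicle and 6.81 FPKM in shScr vehicle, and IFIH1, DHX58, ZBP1 and TLR3 closed the order. In shTFEB ATRA RIGI led, ahead of STING1, ADAR, EIF2AK2 and IFIH1, and in shScr ATRA STING1 led, ahead of ADAR, RIGI and EIF2AK2. TLR3 and ZBP1 stood last in both. The deposited bounds of neighbours in this order overlapped for CGAS and MAVS in shTFEB ATRA, for CGAS with EIF2AK2 and DHX58 with ZBP1 in both vehicle groups, and for TLR3 with ZBP1 in shScr ATRA; the other neighbours had bounds apart, which are no measure of the spread between samples.

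Partner genes of the same pathways were counted from 4 lists chosen for role. Of 35 adapters and regulators of RNA sensing, 5 were higher and 0 lower in shTFEB ATRA than in shScr ATRA, with a median log2 ratio of 0.15, where 2.67% of all compared genes were higher and 1.58% lower. These were IFIT5, an RNA-binding member of the IFIT family, at 58.9 FPKM in shTFEB ATRA and 14.7 FPKM in shScr ATRA (1.93), the helicase genes DDX60 (1.70) and DDX60L (1.05), the transcription factor gene IRF7 at 59.9 FPKM in shTFEB ATRA and 25.1 FPKM in shScr ATRA (1.22), and UNC93B1, which carries TLR3 to endosomes (1.05). TRIM25, the ubiquitin ligase that acts on RIGI, reached 65.4 FPKM in shTFEB ATRA and 33.4 FPKM in shScr ATRA, a log2 ratio of 0.95. With ATRA 11 of the 35 rose and 2 fell in shTFEB cells, where 11.5% of all compared genes rose and 10.5% fell. In shScr cells 9 rose and 3 fell, where 12.5% of all compared genes rose and 15.2% fell; IFIT5, DDX60, DDX60L and IRF7 were the widest changes in each.

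The DNA sensing and STING list had 28 of 36 genes at levels that could be compared, of which 4 were higher and 0 lower in shTFEB ATRA than in shScr ATRA (median 0.28), against 2.67% and 1.58% of all compared genes. USP18, a protease that removes ISG15, stood at 93.9 FPKM in shTFEB ATRA and 12.9 FPKM in shScr ATRA (2.77), followed by IFI35 (1.42), NMI (1.07) and the DNA-binding protein gene IFI16 (1.06). The exonuclease gene TREX1 had 0.79 and the lysosomal nuclease gene DNASE2 0.77. Under vehicle the log2 ratio of shTFEB to shScr cells was 0.07 for TREX1 and 0.86 for DNASE2, so DNASE2 differed without ATRA as well. IFI16 is also the 1 gene of this list past the mark under vehicle, at 1.97 FPKM in labelled shTFEB vehicle and 7.01 FPKM in shScr vehicle. With ATRA 8 of the 28 rose and 1 fell in shTFEB cells, beside 11.5% and 10.5% of all compared genes, and 6 rose and 6 fell in shScr cells, beside 12.5% and 15.2%. SAMHD1, a dNTP hydrolase gene, had log2 ratios of 3.76 in shTFEB and 2.70 in shScr cells.

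Around PKR and ADAR, of 22 compared double-stranded RNA binding and eIF2α genes, 0 were past the mark in either direction between shTFEB and shScr cells under ATRA, and the median was 0.20. Of all compared genes 2.67% were higher and 1.58% lower, so 0 of 22 is near that share. Among the widest values were those of PPP1R15A, a subunit of the phosphatase that reverses eIF2α phosphorylation (-0.59), ILF2 (0.52), the PKR activator gene PRKRA (0.48), TARBP2 (0.45) and EIF2S2 (0.38). With ATRA 1 of the 22 rose and 3 fell in shTFEB cells, where 11.5% and 10.5% of all compared genes did, and 1 rose and 7 fell in shScr cells, where 12.5% and 15.2% of all compared genes did. NPM1 and PRKRA were among those that fell. The editor gene ADARB1 stood at 1.73 FPKM in shTFEB ATRA and 4.52 FPKM in labelled shTFEB vehicle, against 2.02 FPKM in shScr ATRA and 5.82 FPKM in shScr vehicle, and fell with ATRA under both hairpins. The remaining eIF2α kinase genes, named here for their role, had log2 ratios between shTFEB and shScr cells under ATRA of 0.22 (EIF2AK1), 0.08 (EIF2AK3) and 0.29 (EIF2AK4).

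Of 10 partners of ZBP1 in necroptosis and apoptosis, 0 passed the mark between shTFEB and shScr cells under ATRA (median 0.19), which is near the 2.67% higher and 1.58% lower of all compared genes. With ATRA 5 of them rose and 0 fell under each hairpin, where 11.5% of all compared genes rose in shTFEB cells and 12.5% in shScr cells. RIPK3, the kinase that ZBP1 engages, stood at 1.97 FPKM in shTFEB ATRA and 0.261 FPKM in labelled shTFEB vehicle, against 2.76 FPKM in shScr ATRA and 0.352 FPKM in shScr vehicle. MLKL, which permeabilises the membrane in necroptosis, stood at 33.7 FPKM in shTFEB ATRA and 10.4 FPKM in labelled shTFEB vehicle, against 24.0 FPKM in shScr ATRA and 10.7 FPKM in shScr vehicle. The ratios between the ATRA groups were 0.48 for MLKL, -0.34 for RIPK3, 0.41 for CASP8, 0.41 for GSDMD, 0.24 for RIPK1 and -0.49 for NLRP3. Between the vehicle groups they were -0.04 for MLKL, -0.10 for RIPK3, 0.51 for CASP8, 0.36 for GSDMD, 0.04 for RIPK1 and -0.35 for NLRP3. CASP8, GSDMD and NLRP3 thus differed in the same direction without ATRA.

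**Figure D4:**
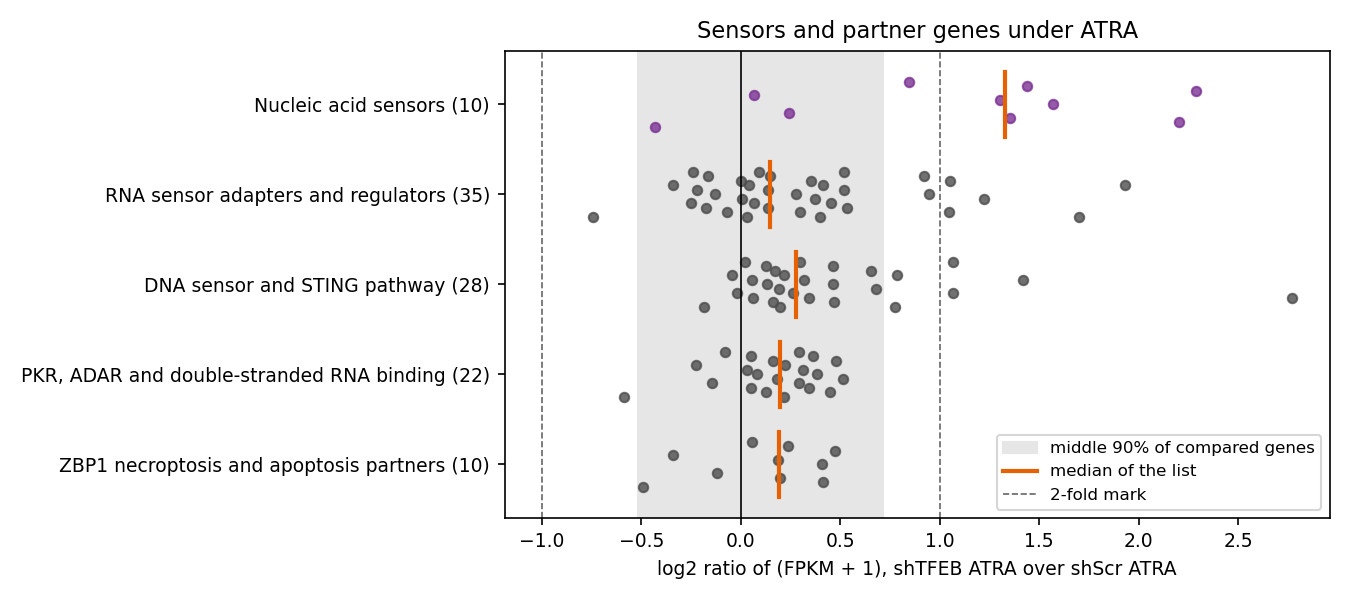
Log2 ratios of FPKM + 1, shTFEB ATRA over shScr ATRA, for the 10 sensors and 4 lists of partner genes, 1 point per compared gene (numbers in brackets), with the list median in orange and the middle 90% of all compared genes in grey. Medians are 1.33 for the sensors and 0.15 to 0.28 for the partner lists; the height of a point within its row carries no value.

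Interferon transcripts, whose proteins are induced downstream of these sensors, were low. Of 21 interferon genes 0 reached the mean needed for a comparison, and the highest value was 1.13 FPKM, for IFNA13 in shTFEB ATRA. IFNB1 stood at 0.754 FPKM in shTFEB ATRA and was listed at 0 in labelled shTFEB vehicle, against 0.135 FPKM in shScr ATRA and 0.0202 FPKM in shScr vehicle. IFNA2 stood at 0.412 FPKM in shTFEB ATRA and 0.0261 FPKM in shScr ATRA and was listed at 0 in both vehicle groups. The sum over the 21 genes was 3.95 FPKM in shTFEB ATRA and 0.248 FPKM in labelled shTFEB vehicle, against 0.916 FPKM in shScr ATRA and 0.440 FPKM in shScr vehicle. The IFNA genes resemble each other closely, so fragments may have been divided among them and single IFNA values are uncertain. The sum was highest in shTFEB ATRA. Against shScr ATRA, 6 of the 10 sensors were higher there, where 2.67% of all compared genes were. Without TLR3 and ZBP1 this was 4 of 8. STING1 was lower without passing the mark. The part of the interferon transcripts in the result was not tested.

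Genes with the most similar pattern were sought among 10416 compared genes above 0 in all groups, by the Euclidean distance between log2(FPKM + 1) levels over the 4 groups, each centred on its mean. Closest to RIGI were SAMD9 (distance 0.295), CYP4F3 and USP18; to IFIH1 DDX60 (0.156), EPAS1 and PARP9; and to DHX58 SP110 (0.102) and DTX3L. BST2 (0.0805), BLZF1 and IFITM3 were closest to TLR3, IFITM1 (0.233), OTOF and KLHDC7B to ZBP1, and CYP4F12 (0.113), CIMAP1B and CYP26A1, all of them at most 5.03 FPKM, to EIF2AK2. STING1 was closest to EHD1 (0.238), SLCO4C1 and SIRPA, and ADAR to FMR1 (0.0791), SLC40A1 and GBP5. MAVS had TRPC4AP, ZNF611 and AGGF1 within a distance of 0.0256, and CGAS had WDFY1, CHRNB1 and HPS3 within 0.0243. With 4 points per gene, this likeness describes the groups and carries no test. The added 1 FPKM narrows the changes of low genes, so plain folds can differ widely within a small distance. CYP26A1 stood at 4.33 FPKM in shTFEB ATRA and 0.00572 FPKM in labelled shTFEB vehicle, while EIF2AK2 rose 5.26-fold between these groups. CYP4F12, CIMAP1B, CYP26A1, OTOF and GBP5 passed the filter through shTFEB ATRA, where they were high, so their likeness is in part set by this.

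Markers of other cell types were low. Summed over 6 plasmacytoid dendritic cell genes the level was 5.15 FPKM in shTFEB ATRA and 2.08 FPKM in labelled shTFEB vehicle, against 3.83 FPKM in shScr ATRA and 1.40 FPKM in shScr vehicle, with GZMB listed at 0 throughout and IL3RA the 1 gene of the 6 that could be compared. Over 9 monocyte and macrophage genes the sum was 47.3 FPKM in shTFEB ATRA and 1.47 FPKM in labelled shTFEB vehicle, against 44.6 FPKM in shScr ATRA and 1.51 FPKM in shScr vehicle. The 10 lymphoid genes summed to between 15.1 and 23.1 FPKM, the 8 erythroid and platelet genes to between 2.02 and 3.999 FPKM and the 10 fibroblast, endothelial and epithelial genes to between 29.6 and 36.2 FPKM in the 4 groups. MS4A1, HBB, PF4, COL1A2 and DCN were listed at 0 in every group. ITGA2B, a platelet integrin gene among the erythroid and platelet markers, stood at 2.75 FPKM in shTFEB ATRA and 0.770 FPKM in labelled shTFEB vehicle, against 0.521 FPKM in shScr ATRA and 0.177 FPKM in shScr vehicle. Its log2 ratio between the ATRA groups, 1.30, passed the mark in the same direction as those of the sensors counted as higher. ITGA2B passed the filter through shTFEB ATRA, where it was high, so that it differs is in part set by this. The part of these markers in the results was not tested.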

How the data were processed

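Total RNA of NB4 cells was sequenced after TruSeq preparation, per the labels' protocols. The authors deposited FPKM values with lower and upper bounds; their tools were TopHat, Cufflinks and Cuffdiff on hg19, per the submitters' processing notes, with versions not given in the sources used here. Each of the 4 tables lists 65986 transcript models with 1 FPKM per group, and no source says how both samples entered it. The deposited bounds enclosed the value in 25 of 40 member values, so they are not used as confidence intervals.

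RefSeq accessions were matched to symbols in a RefSeq table (GRCh38.p14) that served only for naming (96.8% of 41159 matched). Each symbol's models were summed. Coordinates of models are hg19, counted from 1. Genes with a mean of at least 1 FPKM were compared as log2 ratios with 1 FPKM added. Promoter windows are RefSeq sequences of GRCh38.p14, and codon counts come from GENCODE transcripts matched by accession; the long form of ADAR belongs to the proximal start there, not to the distal start assumed beforehand. Pandas 2.3.3 and numpy 2.4.6 under Python 3.11.15 were used. The computation of the ratios was run on simulated data with little noise. Changes wider than the mark were planted there, only in genes at higher levels. Their recovery was thus all but set in advance, and low genes such as TLR3 and ZBP1 were not covered.

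Named genes were the 10 members, TFEB, the 3 nearest patterns per member and the widest changes of each list, up to 6 for shTFEB against shScr under ATRA and up to 4 for ATRA against vehicle; others are named for their role. Some genes that this choice names are left out of the text. Members and lists were chosen with earlier results of these data known. Tried as alternatives were a pseudocount of 0.1 or 5 FPKM, a filter at a mean of 5 FPKM or none, rescaling by upper quartiles or by the median of ratios, taking a symbol's highest model, dropping models without status OK, and requiring bounds that do not overlap; the GAAA spacing and leaving out TLR3 and ZBP1 were added after the data were seen.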

Additional observations from a re-analysis of the deposited data

Results flagged for a closer look

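An assembled model without a gene symbol, on chromosome 2 from 163175544 to 163176543 (hg19) and 325 bases beyond the start of IFIH1, lies outside the comparisons of named genes and was above its vehicle level. It stood at 28.6 FPKM in shTFEB ATRA and 0.878 FPKM in labelled shTFEB vehicle, against 16.8 FPKM in shScr ATRA and 0.644 FPKM in shScr vehicle. The ratio to vehicle was 32.5-fold in shTFEB cells and 26.1-fold in shScr cells, and the ratio of shTFEB to shScr cells under ATRA was 1.70-fold, where that of IFIH1 was 3.07-fold. Its deposited bounds under ATRA, 8.42 to 12.4 FPKM in shTFEB and 4.82 to 7.89 FPKM in shScr cells, lie below the values themselves, so its level is uncertain. Whether its fragments belong to IFIH1 was not tested.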

How the results depend on the processing

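Counts of members past the mark stayed within 1.5 times of those reported under every alternative except a mean of at least 5 FPKM, which leaves out DHX58, TLR3 and ZBP1. It gave 5 members for ATRA in shTFEB cells, 3 for shTFEB against shScr cells under ATRA and 3 for the difference of the responses, because fewer genes were compared. Taking the highest model dropped ZBP1 below the filter, which ends its call and left 7 members for ATRA in shTFEB cells, 5 between the ATRA groups and 5 for the difference. For ATRA in shScr cells the count ran from 3 with a pseudocount of 5 FPKM to 6 with a pseudocount of 0.1 FPKM, where TLR3 (2.40) and EIF2AK2 (1.03) passed the mark; EIF2AK2 also passed it after either rescaling, with 1.03 and 1.11. A pseudocount of 5 FPKM took DHX58 and TLR3 below it between the ATRA groups (0.95 and 0.58), DHX58 in shScr cells (0.88) and TLR3 in shTFEB cells (0.74). Of 420 values of single members under the alternatives, 406 kept their direction and side of the mark, 6 lost it, 4 gained it and 4 changed sign. Many of these could not change. Another filter and dropping models without status OK left every member value as it was. Taking the highest model could change MAVS alone among the members it kept. The 406 are therefore no measure of robustness. All 4 sign changes were of MAVS near 0: -0.052 after median-of-ratios rescaling and -0.0021 with the highest model under vehicle, -0.035 under ATRA and -0.041 for the difference of responses after upper-quartile rescaling; the cause was not tested. Over all genes, a pseudocount of 5 FPKM gave 170 higher and 101 lower genes between the ATRA groups in place of 295 and 175, 795 and 582 in place of 1270 and 1159 for ATRA in shTFEB cells, 873 and 949 in place of 1384 and 1676 for ATRA in shScr cells, 70 and 48 in place of 117 and 87 under vehicle, and 126 in place of 206 lower genes for the difference. Under vehicle a pseudocount of 0.1 FPKM gave 211 higher genes, a mean of at least 5 FPKM 67 and 52, and bounds apart 72 and 50. The mean of at least 5 FPKM gave 110 lower genes between the ATRA groups and 127 for the difference. Upper-quartile rescaling gave 1550 and 1359 for ATRA in shScr cells. No paired analysis was possible because the tables hold 1 value per group, and leaving out a replicate was not run for the same reason. Absolute depth is not given, so no counting error could be set beside the low values of TLR3, ZBP1 and the interferon genes.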

Other observations

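The gene next to DHX58 on chromosome 17, KAT2A, which encodes a histone acetyltransferase, lies 377 bases beyond its start (hg19, 40265129 to 40273382) and moved the other way with ATRA. KAT2A stood at 15.9 FPKM in shTFEB ATRA and 26.6 FPKM in labelled shTFEB vehicle, against 7.99 FPKM in shScr ATRA and 23.5 FPKM in shScr vehicle. It fell with ATRA in shScr cells (log2 ratio -1.45) and had -0.71 in shTFEB cells, so between the ATRA groups it was 1.99-fold higher in shTFEB cells, at a log2 ratio of 0.91 that did not pass the mark. This gene and the model beside IFIH1 are the models within 2000 bases of the 10 genes that belong to none of them, a window chosen after the values were seen. DHX58 itself had log2 ratios of 3.41 and 2.10 with ATRA in shTFEB and shScr cells.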
